A study of Mus musculus with 8 samples.

Results

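The array carries 16181 probes for long intergenic noncoding RNAs (lincRNAs), each named in the array design by the span and strand of an intergenic region instead of a gene. Of these, 6881 probes were detected in RNA of the NAc, the nucleus accumbens of the ventral striatum, from male mice of the strain C3H/HeN, and they lay in 3015 regions counted by strand, or 2439 genomic spans. The lincRNA probes made up 29.1% of the 55681 probes other than controls. Members were chosen by their signal: a probe was kept where 4 or more of the 8 arrays, of either group, had its spot called well above background by the scanner software. Detection and signal level are thus a description of the choice, whereas the comparison of the groups did not enter it.

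The arrays compared 4 adult mice exposed to maternal separation (MS) with 4 control mice, 1 array per mouse. MS pups were separated daily from their dams from postnatal day 2 to postnatal day 14, while the dams received unpredictable stress, and control litters were left with their dams. In both groups weaning was on postnatal day 21, the mice had performed an operant task for sweetened milk, and they were deprived of food before the NAc was punched from frozen slices. Each label gives 1 individual number, and 3 of 4 control labels begin with 8 and 3 of 4 MS labels with 7, but what this leading number stands for is not given in the labels, and a shared litter or cage could not be examined.

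lincRNAs are transcripts that lie outside protein-coding genes and are mostly spliced and polyadenylated like mRNAs. Some act in the nucleus on neighbouring genes, others are scaffolds of nuclear bodies or hosts of small RNAs, and for most the function is unknown. Many are transcribed next to genes of transcription factors and are used as markers of cell type in brain, because their expression tends to be more restricted than that of coding genes. An array probe for such a region reports RNA from the strand it is designed for, and it does not give the ends or the exons of the transcript.

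All lincRNA probes were 60 bases long and no sequence occurred more than once. Those shown here are 8 picked from the 20 probes named further on, none of which passed the adjusted threshold. First come 4 that were lower and then 4 that were higher in MS mice. Coordinates are of mouse build mm9, and capitals mark AATAAA, the commonest signal for polyadenylation, which was searched on the probe strand only. It was present in 3.92% of all lincRNA probes, against 13.4% of the probes with a gene symbol. The variant ATTAAA, searched in the same way, was present in 2.47% and 4.73%.
Probe nearest Rad18, chr6:112559288-112559347, reverse strand: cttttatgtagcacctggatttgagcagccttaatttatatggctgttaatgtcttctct
Probe nearest Cibar2, chr8:122724451-122724510, reverse strand: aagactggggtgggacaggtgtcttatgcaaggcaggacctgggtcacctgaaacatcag
Probe nearest Gpr157, chr4:149445771-149445830, forward strand: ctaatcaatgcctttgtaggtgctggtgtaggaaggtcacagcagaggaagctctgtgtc
Probe in the Frem3 region, chr8:83219349-83219408, forward strand: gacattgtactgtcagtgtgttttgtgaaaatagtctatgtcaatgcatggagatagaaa
Probe in the D730003I15Rik region, chr1:193049655-193049714, forward strand: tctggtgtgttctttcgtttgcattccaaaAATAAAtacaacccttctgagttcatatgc
Probe nearest Gm13141, chr4:146531782-146531841, reverse strand: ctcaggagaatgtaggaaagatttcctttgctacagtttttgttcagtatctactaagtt
Probe nearest Zbtb20, chr16:43639338-43639397, forward strand: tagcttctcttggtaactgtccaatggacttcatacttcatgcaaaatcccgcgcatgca
Probe nearest Gm14636, chrX:18814850-18814909, reverse strand: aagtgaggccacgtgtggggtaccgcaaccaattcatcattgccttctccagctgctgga
Of the 8 sequences, that in the D730003I15Rik region holds AATAAA. Detection differed little with this motif, as 44.8% of the lincRNA probes with AATAAA and 42.4% of those without it were members.

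Detection of lincRNA probes was mostly on no array or on all of them. Of the 16181 probes, 5998 (37.1%) were well above background on no array and 5630 (34.8%) on all 8 arrays, and 4553 (28.1%) on 1 to 7 arrays, 2242 of them on 1 array. Among the 32527 probes with a gene symbol, 20% were well above background on no array, 65.6% on all 8 and 14.3% on 1 to 7. On at least 4 arrays these shares were 42.5% of lincRNA probes, 70.1% of symbol probes and 49.5% of the 6973 other probes. Just inside the limit, 289 probes reached 4 arrays, with mean log2 levels from -5.47 to -4.14, and just outside it 370 probes reached 3 arrays, with levels from -6.12 to -4.44. Levels are log2 of the processed signal minus the 75th percentile of the array, so that 0 is the brightness of the 75th percentile.

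**Figure D1:**
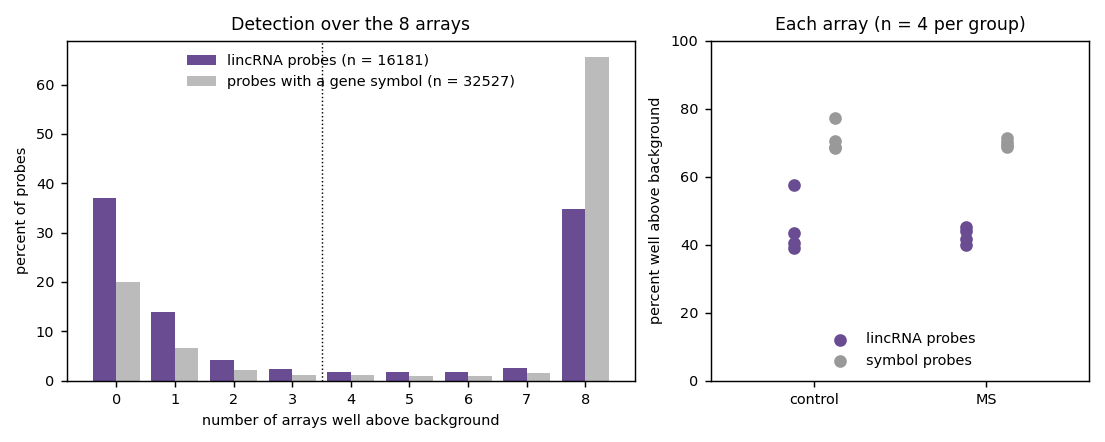
Left, percent of lincRNA probes and of probes with a gene symbol (y axis) by the number of arrays on which they were well above background (x axis), with the limit for members as a dotted line. Right, percent well above background on each array by group, where 1 control array stands at 57.6% of lincRNA probes and the other 7 lie between 39.1% and 45.1%.

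One control array stood apart. Control replicate 4 had 57.6% of lincRNA probes well above background, whereas the other 3 controls had 39.1% to 43.3% and the 4 MS mice 40.0% to 45.1%. Averaged over 4 mice each, the share with its SD came to 45.1 ± 8.5% for controls and 42.7 ± 2.26% for MS (exact two-sided permutation p = 0.857), and without control replicate 4 the order of the groups turned, with MS mice 1.71 percentage points above controls (exact permutation p = 0.343). Of the 289 probes just inside the limit, 93.8% were well above background on this array. Without it, 6610 lincRNA probes would have reached 4 arrays. Only 2 members were well above background on no MS array and only 2 on no control array.

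Most members were dim. The median of the mean level of the 6880 tested members was -2.83 log2 units, with quartiles at -3.97 and -1.31 and a range from -5.47 to 9.07. Above the 75th percentile of the array lay 886 members (12.9%), compared with 48.0% of tested symbol probes, and 82 members were more than 4 log2 units above it. The spread between mice shrank with the level: the median SD within groups was 0.389 log2 units in the 1663 members at -4 or below and 0.129 in the 886 members above 0. One member had an outlier spot on an array and was not tested.

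Members were found on both strands and on every chromosome except Y, for which the design holds no lincRNA probe. The forward strand of mm9 gave 3333 members of 8171 probes (40.8%) and the reverse strand 3548 of 8010 (44.3%). By chromosome, the share of lincRNA probes that were members ran from 34.1% on chromosome 9 to 49.7% on chromosome 19. Regions with a member had a median span of 11676 bases, from 87 to 538251 bases, compared with 10676 bases in the whole design. The spans overlap: merged on each strand, the 3015 tested regions became 2278 loci, so that neighbouring regions are not independent of each other. With regions cut into 4 parts of equal length, detection was 47.3% in the part at the 5′ end and 41.0% to 41.9% in the other 3.

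The base composition of a probe went with its detection. Members made up 23.3% of the lincRNA probes with at most 30% G and C, 38.8% of those above 30% and up to 40%, 55.1% of those above 50% and up to 60%, and 80.2% of those above 60%. In probes with a gene symbol, the matching shares were 54.3%, 68.1%, 78.8% and 84.5%.

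For 1067 spans the design holds probes on both strands. Both strands had members in 576 of them (54.0%), the forward strand alone in 168, the reverse strand alone in 200 and neither in 123. Detection on both strands does not show that both are transcribed, since no control for antisense labelling was examined.

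The nearest probe with a gene symbol that was itself tested lay a median of 13502 bases from the region, with quartiles at 1052 and 50797 bases. In 580 regions (19.2%) such a probe lay within the span, and in 1751 (58.1%) it was on the same strand. This is a distance to a probe and not to the end of a gene, since array probes usually lie near the 3′ end. Regions called beside, near or nearest to a gene here are placed by its probe, so they can lie within the gene. Whether a lincRNA probe on the same strand as a nearby gene reads the transcript of that gene was not tested.

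No lincRNA probe passed the threshold in the comparison of MS with control mice. At an adjusted limma p under 0.05, 0 of the 6880 tested members were called, where 0.00302% of all 33111 probes were, which is 1 probe. The smallest adjusted p of a member was 0.0535. At an unadjusted limma p under 0.05, 376 members (5.47%) were lower in MS mice, where 7.71% of all probes were, and 577 (8.39%) were higher, where 6.35% of all probes were. In 170 members (2.47%) every MS mouse was below every control mouse, against 4.91% of all probes, and in 299 (4.35%) every MS mouse was above every control mouse, against 3.76%. The median difference, MS minus control, was 0.02 log2 units in members and 0.0023 over all probes.

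The count of calls at the adjusted threshold depended on the processing. After normexp background correction and quantile normalization 41 members (0.596%) were called, where 1.36% of all probes were, and on the deposited log2 values 33 (0.534%), where 1.2% were. When the prior variance followed the level and was fitted robustly, 49 members (0.712%) were called against 1.52% of all probes. Of the members at an unadjusted p under 0.05, 60.5% were higher in MS mice, compared with 39.4% of the symbol probes at this p. The share was 73.3% with normexp, 69.5% with the deposited values, 69.2% with median scaling and 69.5% without control replicate 4, but 39.0% when dim probes were not filtered and 47.1% without MS replicate 1, so more members were lower than higher in both of these. The share in symbol probes was 30.7% without the filter and 38.2% without this mouse.

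**Figure D2:**
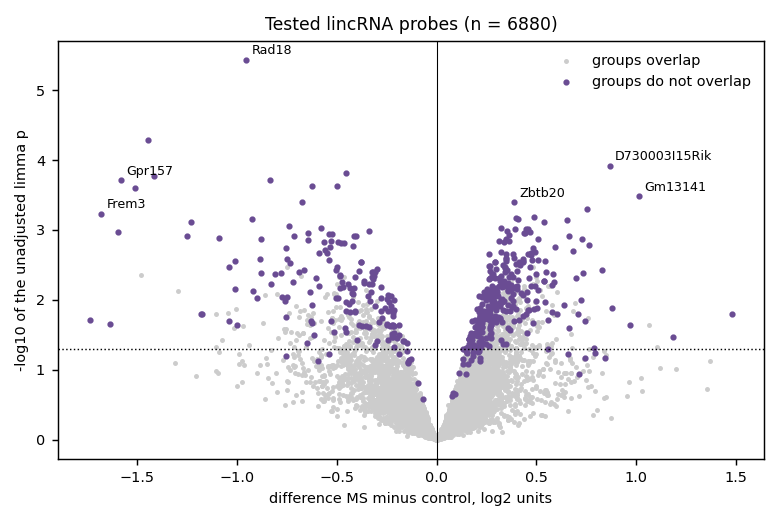
Difference between MS and control mice in log2 units (x axis) against -log10 of the unadjusted limma p (y axis) for the 6880 tested lincRNA probes. Coloured points are the 170 lower and 299 higher probes whose groups do not overlap, the dotted line is an unadjusted p of 0.05, and names give the nearest named probe of 6 of the regions described in the text.

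The lean to higher values went with the level and with the base composition of the probe. Above the 75th percentile of the array, 137 of 886 members (15.5%) were higher and 43 (4.85%) lower at an unadjusted p under 0.05, whereas at -4 log2 units or below 62 of 1663 (3.73%) were higher and 106 (6.37%) lower. Among members with above 30% and up to 40% G and C, 13.6% were higher and 4.76% lower, and among those above 60%, 2.95% were higher and 5.17% lower. Symbol probes moved in the same way with composition, from 7.32% higher and 7.58% lower in the first of these classes to 2.30% higher and 8.05% lower in the second. The part of composition and brightness in the group difference was not tested.

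By chromosome, the share of members higher in MS mice at this p was 19.9% on chromosome 16, 13.9% on chromosome 12 and 12% on chromosome 9, and it was 2.81% on chromosome 7. Of symbol probes, 7.13% were higher on chromosome 16, 7.41% on chromosome 12, 6.54% on chromosome 9 and 3.9% on chromosome 7, which had the lowest share in symbol probes too. Chromosome 10 had the largest share of lower members, with 10.7%, where 7.88% of symbol probes were lower. On chromosome 16, 17 of the higher probes belonged to 4 overlapping regions near the Zbtb20 probe, which are described further on.

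Levels of several cell type marker lists differed between the groups at an unadjusted p. Only Lhx5, a hypothalamic marker, passed the adjusted threshold (limma adjusted p = 0.00744). It was well above background on 4 of 8 arrays, so levels on the others are a bound and nothing is read from its p. Over all probes, 7.71% were lower and 6.35% higher at an unadjusted limma p under 0.05. The lists hold genes known from an earlier account of these data, among them Npas1, Pvalb and Agt. Their counts were thus in part fixed by the choice and are a description. Of 12 genes of medium spiny neurons, the main neurons of the NAc, all were tested and well above background on 8 arrays, so the labelled tissue was seen in the data, and all 12 differences were above 0, with 5 at an unadjusted limma p under 0.05 and adjusted p from 0.240 to 0.534. Their summed level was 695 to 1042 in controls and 976 to 1173 in MS mice, as multiples of the 75th percentile. All 8 genes of pallidal and basal forebrain neurons, among them Npas1 and Pvalb, were lower at this p, with adjusted p from 0.0709 to 0.183 and summed levels from 10.5 to 18.1 in controls and from 4.21 to 8.66 in MS mice. Of 9 astrocyte genes 5 were lower at this p (49.1 to 58.6 in controls, 39.0 to 41.9 in MS mice). The largest differences were those of Etnppl (-2.45), Agt (-1.999) and Itih3 (-1.27), while Gfap differed by -0.66 and Aldh1l1 by -0.25. Gja1, Slc1a3, Aqp4 and Slc1a2 were not at this p, with differences of -0.16, -0.12, 0.06 and 0.16, so the list did not move together. Of the tested hypothalamic and preoptic genes other than Lhx5, Resp18, Gpr101 and Nap1l5 were lower at this p, and Trh was not, with a difference of 0.09. The summed level of the 5 tested genes, Lhx5 included, was 33.9 to 48.4 in controls and 20.4 to 28.5 in MS mice. Oligodendrocyte genes had 0 of 5 at this p (157 to 210 against 145 to 199) and microglial genes 1 of 4, lower (24.7 to 31.4 against 23.7 to 26.4). The part of these shifts in the lincRNA differences was not tested, and in tissue RNA fewer cells of a type and less RNA per cell cannot be told apart.

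The lowest p among members belonged to a probe on the reverse strand of chr6:112552041-112560067, 10555 bases from the nearest probe of Rad18, an E3 ubiquitin ligase of DNA damage tolerance. Its level was -3.60, -3.56, -3.85 and -3.54 in the 4 controls and -4.67, -4.45, -4.65 and -4.60 in the 4 MS mice. The groups lay apart by more than the spread within either. The difference was -0.95 log2 units (SE 0.09, limma adjusted p = 0.0535, range over the alternatives 0.0265 to 0.196), but -0.19 with normexp and -0.30 on the deposited values. Of 10 probes for this region and strand 3 were tested, all below 0 in difference. The nearest Rad18 probe, on the same strand, differed by 0.05.

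The 3 named regions near Cibar2 lay close together on the reverse strand of chromosome 8, each with Cibar2 as nearest named probe. In chr8:122712014-122732520 the probe level was -2.93, -2.85, -3.14 and -2.32 in controls and -3.97, -4.42, -4.09 and -4.56 in MS mice. The difference was -1.45 (SE 0.19, limma adjusted p = 0.0633, alternatives 0.00733 to 0.236), and it was -0.47 with normexp and -0.64 on the deposited values. A second probe, next to the first without overlapping it, differed by -1.42, while the other 2 tested probes of the region differed by 0.14 and -0.18, so that the probes of this span did not move together. In the overlapping chr8:122728333-122752130 the 1 tested probe differed by -1.51 (SE 0.25), from -3.33 to -2.45 in controls and from -5.00 to -3.97 in MS mice. In chr8:122807653-122823000 the named probe differed by -0.67 (SE 0.12) and the other tested probe by 0.01. The Cibar2 probe, 21629 bases from the first of these regions, differed by -0.56 (limma adjusted p = 0.172).

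A region of 8495 bases on the forward strand, chr8:83210957-83219451, holds the probe of Frem3, which encodes an extracellular matrix protein. Its 3 probes abut each other at the 3′ end of the span. The named one was at -1.04, -2.12, -1.80 and -0.51 in controls and at -3.17, -3.20, -2.89 and -2.92 in MS mice. No value of the groups overlapped, although the controls were widely spread (SD 0.727 against 0.161). The 3 probes differed by -1.68, -1.59 and -1.30, and the groups overlapped for the last of them. The Frem3 probe on the same strand, which shares 27 bases with a probe of the region, differed by -1.58, with all 4 MS mice below the controls. The named probe had a limma adjusted p of 0.0961 (alternatives 0.0332 to 0.288), and its difference was -0.93 with normexp and -1.11 on the deposited values.

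On the forward strand of chr4:149445201-149445902, a short span of 702 bases located 33817 bases from the probe of the orphan receptor gene Gpr157, 3 of 3 tested probes were lower at an unadjusted p under 0.05. The named probe stood at -2.23, -2.12, -2.86 and -2.22 in controls and at -4.04, -4.08, -3.24 and -4.38 in MS mice. One mouse of each group lay towards the other group. The difference was -1.58 (SE 0.25, limma adjusted p = 0.0709, alternatives 0.00933 to 0.236), against -0.63 with normexp and -0.86 on the deposited values. The Gpr157 probe differed by -0.29.

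The other 4 lower regions lay on chromosomes 2, 4 and 5. The named probe on the reverse strand of chr4:155564927-155571580 differed by -0.83 (SE 0.13), from -3.40 to -2.84 in controls and from -4.22 to -3.97 in MS mice. The nearest named probe, 1953 bases from the region, was that of Isg15, an interferon-induced ubiquitin-like protein. It differed by -0.68 with overlapping groups. Whether the lincRNA probe reads a coding transcript of this strand was not tested. At chr4:114627748-114632898 on the reverse strand, 1325 bases from the probe of the nucleotide kinase gene Cmpk1, had 4 of 4 tested probes lower at an unadjusted p under 0.05, from -0.62 to -0.28, and Cmpk1 differed by -0.18. A probe on the reverse strand of chr5:149751979-149808240, which holds the probe of the katanin subunit gene Katnal1, differed by -0.45 (SE 0.07) and Katnal1 by -0.05. On the forward strand of chr2:31714946-31716972 the probe differed by -0.50 (SE 0.08), and the nearest named probe, Fibcd1 on the opposite strand at 45260 bases, by -1.03 with no overlap of the groups. Adjusted limma p ranged from 0.0709 to 0.0765 for these 4 probes. With normexp the differences beside Isg15, Cmpk1, Katnal1 and Fibcd1 were -0.26, -0.38, -0.09 and -0.06.

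**Figure D3:**
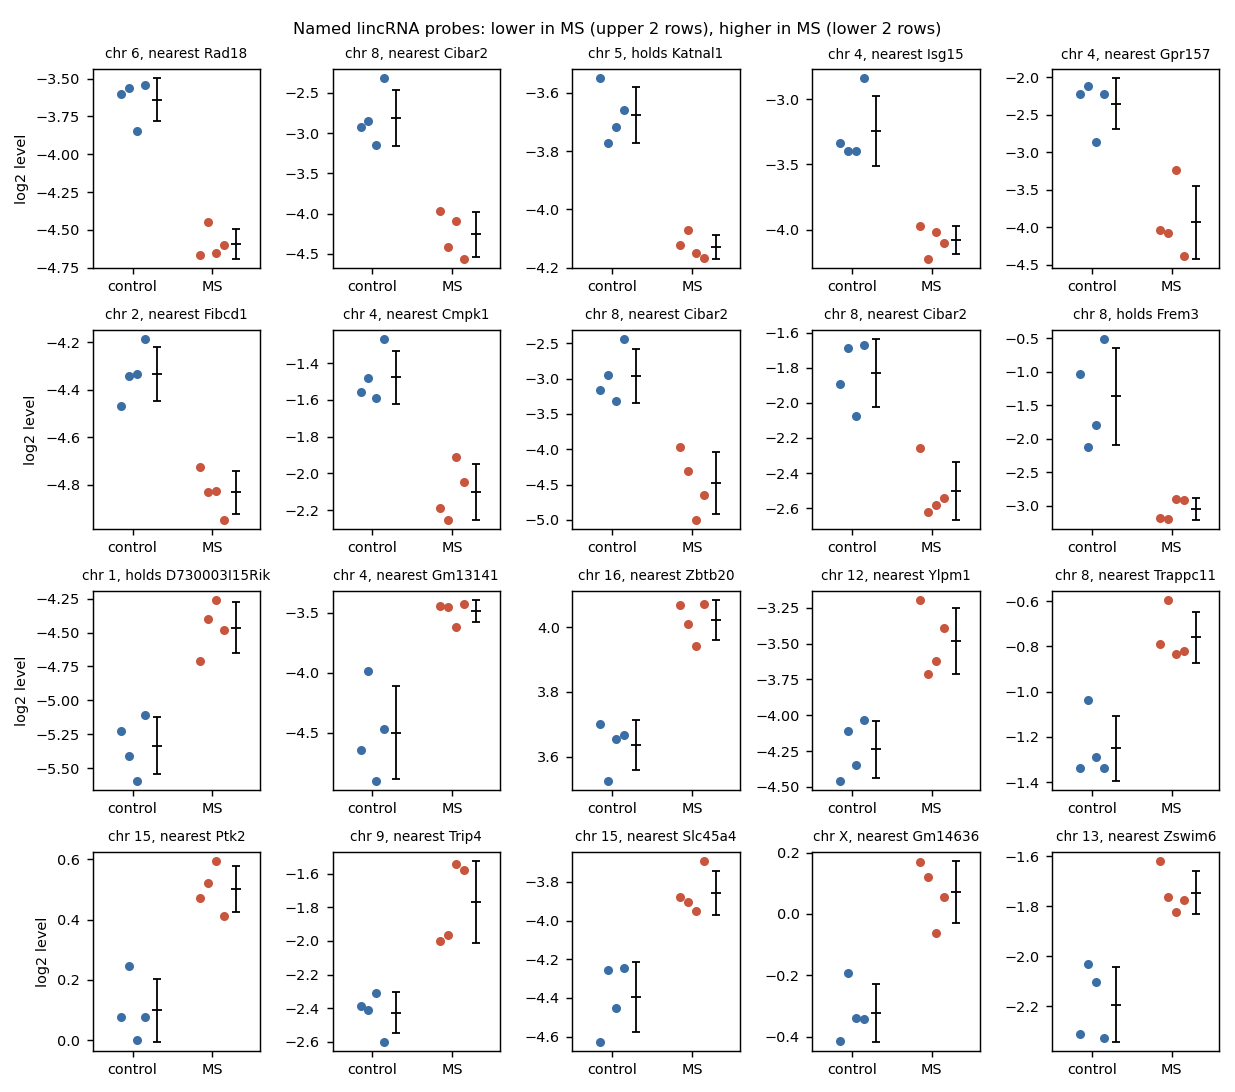
Log2 level (y axis, 0 is the 75th percentile of the array, each panel on its own scale) of the 10 lower and the 10 higher named lincRNA probes, 1 per region and strand, in 4 control and 4 MS mice. Points are mice, and the bar beside them is the mean with the SD. In every panel the groups do not overlap, which is how the probes were selected.

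Among the higher probes was a dim one on the forward strand of chr1:193048332-193049714, a span that holds the probe of D730003I15Rik. It was at -5.22, -5.41, -5.59 and -5.11 in controls, not well above background on any of the 4, and at -4.71, -4.40, -4.26 and -4.48 in MS mice, well above background on all 4. The control level is thus only a bound. Against the lowest signal well above background on the control arrays, it was at least 1.47-fold higher in MS mice (limma adjusted p = 0.0665, alternatives 0.0461 to 0.261). This probe became a member through the MS arrays alone, so that it had to differ, and nothing is read from its p. The D730003I15Rik probe on the same strand differed by -0.07.

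Larger and shared by several probes was the difference on the reverse strand of chr4:146507925-146532650. All 5 tested probes, which lie close together near the 5′ end of the span, were higher with no overlap of the groups. The named probe was at -4.65, -3.98, -4.90 and -4.47 in controls and at -3.45, -3.45, -3.62 and -3.42 in MS mice. It differed by 1.01 (SE 0.18, limma adjusted p = 0.0851, alternatives 0.0360 to 0.265) and the other 4 by 0.54 to 0.73. With normexp the difference of the named probe was 0.32 and on the deposited values 0.39. The nearest named probe, for Gm13141, was 369432 bases away and differed by 0.05. Whether these probes also bind copies elsewhere in the genome was not analysed here.

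Zbtb20 encodes a zinc finger repressor that acts in the development of hippocampal neurons and astrocytes. A set of 4 overlapping regions lies near its probe on both strands of chr16:43623175-43642715, and whether they read Zbtb20 itself was not tested. All 25 tested probes of these regions had a difference above 0, from 0.06 to 0.42, and 17 were higher at an unadjusted limma p under 0.05. On the forward strand of chr16:43623581-43642715, 8 of 10 probes had no overlap between the groups. The named probe was bright, at 3.70, 3.52, 3.65 and 3.67 in controls and at 4.07, 4.01, 3.94 and 4.07 in MS mice. It differed by 0.39 (SE 0.07, limma adjusted p = 0.0908, alternatives 0.0114 to 0.288). The Zbtb20 probe, 4492 bases away on the forward strand, differed by 0.33 with all MS mice above the controls. On the reverse strand of the same span the 9 tested probes differed by 0.06 to 0.42, with 4 at an unadjusted p under 0.05.

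The other higher regions on autosomes lay beside varied genes. The reverse strand of chr8:48476637-48492537, nearest to the vesicle tethering gene Trappc11 at 83515 bases, had 5 of 5 probes above 0, and the named one differed by 0.49 (SE 0.09), from -1.34 to -1.04 in controls and from -0.84 to -0.60 in MS mice. On the reverse strand of chr15:73231192-73231819 the probe differed by 0.40 (SE 0.08), and Ptk2, which encodes focal adhesion kinase and was the nearest named probe at 79927 bases, by 0.21 with no overlap. A probe of chr13:108548345-108679004, reverse strand, differed by 0.45 (SE 0.09), where the nearest probe, Zswim6 at 31271 bases, differed by 0.35. Differences of 0.76, 0.65 and 0.54 were found at chr12:86421771-86422222 on the forward strand, chr9:65651848-65652920 on the reverse strand and chr15:73455424-73477275 on the reverse strand. The nearest named probes of these were Ylpm1, Trip4 and Slc45a4, with differences of 0.03, 0.10 and -0.03. With normexp the differences of the probes beside Ylpm1, Trip4 and Slc45a4 were 0.23, 0.43 and 0.20. Limma adjusted p of these 6 probes ranged from 0.0933 to 0.107.

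On the X chromosome, 3 of 3 probes on the reverse strand of chrX:18810088-18814982 had no overlap between groups. The named probe was at -0.42, -0.19, -0.34 and -0.34 in controls and at 0.17, 0.12, -0.06 and 0.05 in MS mice, a difference of 0.39 (SE 0.08, limma adjusted p = 0.107, alternatives 0.0364 to 0.319). A further region on this strand, chrX:18734106-18744367, also had 3 of 3 probes without overlap, from 0.27 to 0.34, and it holds the probe of Gm14636, which differed by -0.14.

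Probes of 1 region and strand are repeated measurements of the same mice. Of 1745 regions with at least 2 tested probes, all probes had the same sign in 911 (52.2%), and of 8107 pairs of probes 67.5% had the same sign (Pearson r = 0.41 over pairs, which share arrays and scaling). Of 576 spans tested on both strands, the strands had the same sign in 54.7% (r = 0.10). Among 1139 regions with 3 or more tested probes, every probe was at an unadjusted p under 0.05 in 17 that were lower and 31 that were higher. Some of these regions overlap on 1 strand, so that a locus can count more than once. The matching share over genes was not computed, so both counts are a description. The regions of this kind named here were picked after their values were seen.

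Lower with all their probes were 5 of 5 on the reverse strand of chr14:78214602-78225827, from -0.54 to -0.36, none with overlapping groups. The probe of 6330531I01Rik covers the same 60 bases as a probe of this region and differed by -0.45, so it is no second measurement of the span. Another 5 of 5 probes, on the reverse strand of chr16:4585697-4594022, differed by -0.51 to -0.37 and the probe of D330022H12Rik, which shares 53 of its 60 bases with one of them, by -0.48. The forward strand of chr19:23064968-23069896, 64418 bases from the probe of the cation channel gene Trpm3, had 3 of 3 probes from -0.34 to -0.29, while Trpm3 differed by -0.01. All 3 probes at chr1:183832694-183834125, reverse strand, 451 bases from the probe of the actin regulator Enah, differed by -0.53 to -0.42 and Enah by -0.35. The 3 probes of chr13:34240528-34240965, reverse strand, 21377 bases from the probe of the tubulin gene Tubb2b, differed by -1.23 to -0.80, and Tubb2b by -0.26.

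Higher with all their probes were 5 of 5 on the reverse strand of chr17:79042382-79051807, from 0.32 to 0.46, located 1536 bases from the probe of Strn, a calmodulin-binding scaffold abundant in striatum, which differed by 0.31. At chr6:36765550-36793825 the reverse strand had 4 of 4 probes from 0.29 to 0.41, and the diacylglycerol kinase gene Dgki, 3130 bases away, differed by 0.38 with no overlap. At chr16:34524589-34573439, reverse strand, 5 of 5 probes with overlapping groups differed by 0.29 to 0.42, and the nearest probe, for Kalrn at 346147 bases, by 0.30. The forward strand of chrX:58387887-58429166, which holds the probe of Cdr1os, the transcript over the circular RNA locus Cdr1, differed by 0.32 to 0.48 over 3 probes and Cdr1os by 0.35.

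**Figure D4:**
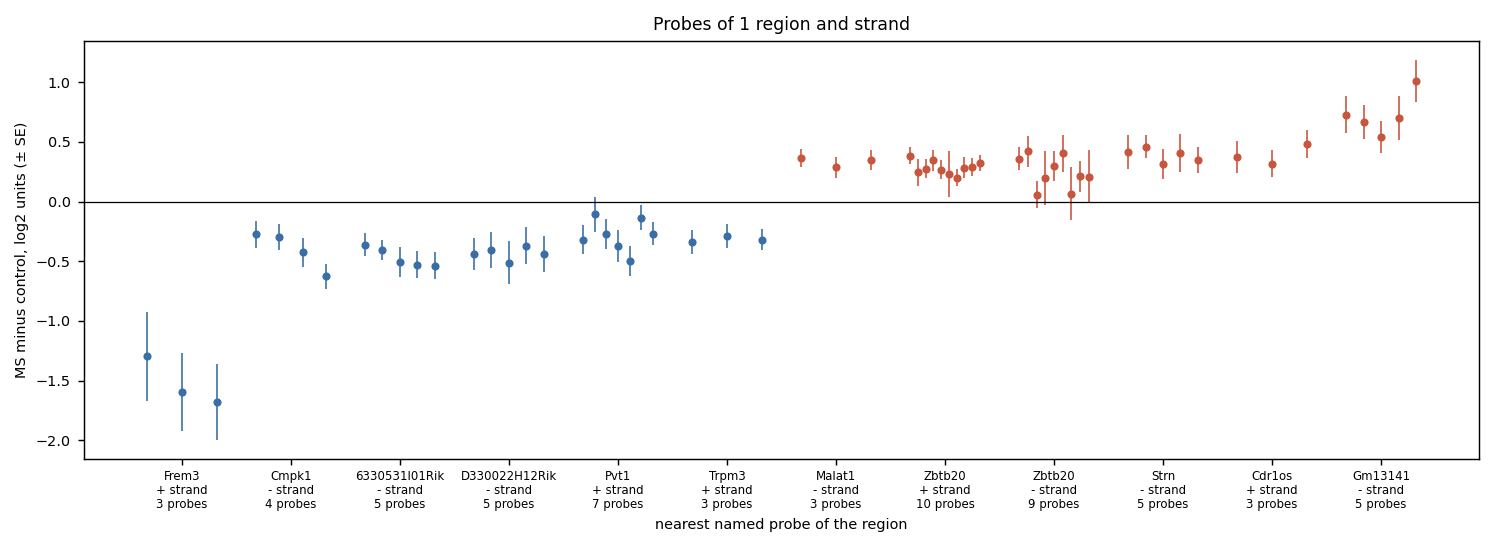
Difference between MS and control mice with its SE (y axis, log2 units) for every tested probe of 12 regions, in the order of their position, labelled by the nearest named probe, the strand and the number of probes (x axis). Within each region shown all probes lie on the same side of 0, and most of these regions were picked for that after their values were seen.

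The 5 regions with the most tested probes, 10 each on 1 strand and taken in genome order among ties, gave mostly small differences. At chr2:157361470-157379813, reverse strand and nearest to Blcap, all 10 differences lay between 0.07 and 0.24 with none at an unadjusted p under 0.05. On chr3:84609788-84618062, reverse strand, they ran from -0.38 to 0.27. The forward strand of chr4:126710640-126721240, 2161 bases from the probe of the splicing factor gene Sfpq, had 10 of 10 above 0 (0.04 to 0.78) and 4 at this p, and Sfpq differed by 0.46 with no overlap, while on its reverse strand 9 tested probes ran from -0.31 to 0.30. The forward strand of chr4:129497990-129515290 had 10 of 10 above 0 (0.15 to 0.39) and 6 at this p, and the reverse strand of chr6:116092274-116144199 ran from -0.18 to 0.26. Of the other spans with the most probes tested on both strands, chr7:99879368-99889978 ran from -0.31 to 0.14 on the forward and from -0.10 to 0.18 on the reverse strand, and chr8:72663625-72673010 from -0.20 to 0.05 and from -0.59 to 0.31.

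The listed lincRNAs with a name offered a view of transcripts whose roles are better known. Of 33 such genes 24 had a tested probe of their own. Each gene was counted by 1 probe, and its other tested probes were not counted. For Malat1 and Kcnq1ot1 4 probes each were tested, and 2 each for Airn, Dleu2, Rmst and Six3os1. At an unadjusted limma p under 0.05, 1 was lower (4.17%, against 7.71% of all probes) and 5 were higher (20.8%, against 6.35%), and none passed the adjusted threshold, with a median difference of 0.04. Rmst, a transcript of neurogenesis, differed by -0.63. Those higher were Dleu2, the host of a pair of microRNAs, by 0.35, Malat1, an abundant RNA of nuclear speckles, by 0.27, Six3os1 by 0.22, Airn by 0.21 and Kcnq1ot1 by 0.20, the last 2 being imprinted antisense RNAs. Meg3, Tug1 and Norad differed by -0.0041, -0.0092 and -0.04.

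Over a probe of 13 of these genes lay 32 lincRNA regions, of which 30 had a tested probe. Of their 113 tested probes, 7 (6.19%) were lower and 8 (7.08%) higher at an unadjusted p under 0.05, near the 7.71% and 6.35% of all probes, with a median difference of -0.01. On the forward strand of chr15:61984389-62102500, the strand of Pvt1, 7 of 7 probes differed by -0.50 to -0.11, whereas the 3 probes of chr15:62046023-62082530 within it differed by -0.06 to -0.01. The reverse strand of chr14:62254361-62301162, the strand of Dleu2, had 2 probes at 0.35 and 0.39, while 8 probes of 3 overlapping regions on this strand ran from -0.01 to 0.30. The snoRNA host Gas5, on the forward strand of chr1:162965309-162970704, had 0.06 and 0.07. At chr11:3538125-3554450, on the strand of Tug1, 6 probes ran from -0.20 to 0.03.

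The bright region on the reverse strand of chr19:5798135-5800557, placed by its nearest named probe, that of Malat1, had 3 of 3 probes without overlap. Whether its probes read Malat1 itself was not tested. The probe with the smallest p was at 5.57, 5.69, 5.67 and 5.51 in controls and at 5.92, 6.09, 5.88 and 6.02 in MS mice. The 3 probes differed by 0.36, 0.29 and 0.35 (SE 0.08, 0.09 and 0.08), and the nearest Malat1 probe, 2363 bases away on the same strand, by 0.28. On the opposite, forward strand of chr19:5795690-5797464, within which a Malat1 probe lies, 3 probes differed by -0.21 to -0.05.

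The difference of a region was set beside that of its nearest named probe. Over 370 regions with that probe inside on the same strand the mean difference of the region correlated with that of the named probe with r = 0.40, and 67.6% had the same sign. In 80 of these the named probe shares bases with a lincRNA probe of the region, so that 1 sequence is in part measured again, and r was 0.80 there. In the other 290, a split made after seeing the data, r was 0.27, with 66.6% of the same sign. Over 210 regions with the probe inside on the opposite strand r was -0.06, with 48.1% of the same sign. Outside the span, r was 0.27 over 486 regions up to 10 kb on the same strand, 0.12 over 282 on the opposite strand, 0.13 over 903 regions above 10 kb and up to 50 kb, and 0.16 over 764 beyond 50 kb. These are correlations across regions, which overlap in part and share arrays, scaling and, in many cases, the named probe. Over all 3015 regions r was 0.18.

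**Figure D5:**
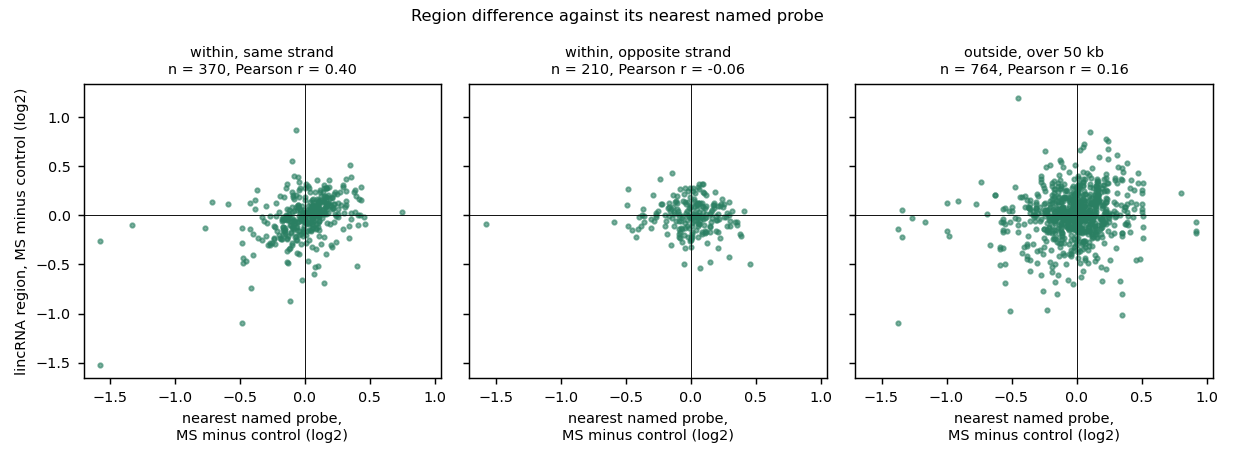
Mean difference of the tested probes of a lincRNA region (y axis) against the difference of its nearest named probe (x axis), both MS minus control in log2 units. Each point is a region and strand: 370 with the named probe inside on the same strand, 210 with it inside on the opposite strand and 764 with it more than 50 kb away. In the first panel r is 0.40, but 80 of its points have a named probe that shares bases with a probe of the region, and r is 0.27 without them.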

How the data were processed

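Cy3-labelled cRNA from 40 ng of total RNA of each mouse was hybridised to 1 Agilent array, with all 8 arrays on 1 slide read in 1 scan. The deposited scanner files give each spot a linear intensity, processed by the authors with Agilent Feature Extraction 10.10.1.1, which subtracts local background. The authors also deposited log2 values for 31261 probes, 6174 of them tested members. These followed the log2 mean signal across probes with correlations of at least 0.9997 on every array, so their scale is log2, their direction is that of the level and genes were not centred. Column medians were 8.01, and how arrays were normalized and probes filtered is a point on which the sources used here give nothing. limma, without a version, is also named in the submitters' processing notes. The headers give build mm9 and an array design other than that named in the paper's methods. The number of arrays limits the precision.

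Left out were control spots and those flagged as outliers, 122 to 189 on an array. Spots of 1 probe were averaged, no spot was saturated, and log2 of the processed signal minus the 75th percentile of the array was taken as level. Groups were compared with limma 3.58.1 in R 4.3.3 over the 33111 probes well above background on at least 4 arrays, with Benjamini-Hochberg values over all of them and a threshold of 0.05. For the share of detected probes all 70 arrangements of the mice were enumerated (exact permutation test, two-sided, smallest possible p 0.0286). The p-values measure the spread between these mice. The fit was tested on simulated data for 33111 probes, with noise drawn independently for each probe. Recovered were 77 of 100 probes changed by 1 log2 unit and 95 of 100 changed by 2, with 8 calls among the unchanged probes. These shares cover bright and dim probes together and are not the power for lincRNA probes, most of which were dim. In the data 41 members differed by more than 1 log2 unit and none was called. Names were taken by accession for 27235 probes through the RefSeq gene table of GRCm38.p6, used for names alone, by symbol for 3581 and by an older symbol for 565, and 1146 kept the symbol of the array design.

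Named were every member past the threshold (none), the 10 lower and 10 higher probes with the smallest limma p among those whose groups did not overlap, 1 per region and strand, the 5 regions with the most tested probes on 1 strand and the 5 spans with the most on both, and regions over probes of 33 listed lincRNA genes. Of the spans with the most probes, that on chromosome 18 is not described. The nearest named probe was the tested probe with a gene symbol at the smallest gap to the region, the same strand and then the brighter probe first among ties. Members, lists and tests were chosen with earlier results of these data known. One list of cell type markers is not reported here. Alternatives were normexp with an offset of 50 and quantile normalization, the deposited values, median scaling, other filters, a variance trend, slide row or column as block, outlier flags kept and leaving out each mouse. Leaving control replicate 4 out of both filter and fit was added after seeing the data, as was leaving out regions whose named probe shares bases with a lincRNA probe.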

Additional observations from a re-analysis of the deposited data

Results flagged for a closer look

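In 4 of 44 groups of 4 mice examined, 1 mouse lay apart from the other 3 by a larger part of the range of the group than Dixon's critical value allows, where chance marks about 1 in 20. For chr4:155564927-155571580 beside Isg15, control replicate 4 was highest at -2.84, with the next control at -3.34. At chr4:149445201-149445902 near Gpr157, control replicate 3 was lowest at -2.86, with the next at -2.23. For chr4:146507925-146532650, MS replicate 3 was lowest at -3.62, with the next at -3.45, and at chr8:48476637-48492537 control replicate 2 was highest at -1.04, with the next at -1.29. The groups of these 4 probes did not overlap with these mice included, which is how the probes were selected.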

How the results depend on the processing

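Of 354 values of the 20 named probes under the alternatives, none changed sign, and 49 passed the adjusted threshold, in 19 of the probes. Most alternatives could not change a sign. The probes were chosen with groups that do not overlap, so leaving out a mouse cannot turn it. Slide blocks, filters and the variance trend leave the difference itself unchanged. The size of the differences changed more. With normexp 16 of 20 were smaller by over 1.5 times, by up to 8.15 times. On the deposited values 11 of 19 were, by up to 6.78 times. An offset of 50 is added to normexp signals, which by arithmetic shrinks log2 differences of dim probes most. The dim probe near Rad18 went from -0.95 to -0.19, and the bright one near Zbtb20 from 0.39 to 0.37. On the deposited values these were -0.30 and 0.37. Smaller sizes alone thus do not show unstable differences, and the part of the offset was not tested. No slide block, row or column, gave a call among members. The count of members past this threshold, 0 as reported, was 41 with normexp and quantile normalization, 33 with the deposited values, 49 where the prior variance followed the level robustly, 8 after median scaling and 7 when all 8 arrays had to be well above background. These are 0.596%, 0.534%, 0.712%, 0.116% and 0.124% of members, against 1.36%, 1.2%, 1.52%, 0.245% and 0.376% of all probes. It was 0 to 1 when 1 mouse was left out, the 1 without control replicate 3. At an unadjusted p under 0.05 the lower count (376) was 238 with normexp and 755 of 16177 without a filter, and 265 to 487 without 1 mouse, and the higher count (577) was 433 to 604. Probes whose groups did not overlap numbered 364 lower (170 as reported) without a filter and 489 higher (299) when control replicate 4 was left out of filter and fit, a choice made after seeing the data. Without 1 mouse they were 223 to 401 and 396 to 514, as fewer mice overlap less by construction. The difference in detection between groups (-2.45 percentage points) ranged from -4.45 to 1.71, the latter without control replicate 4. The correlation of regions with their nearest named probe (0.18) was 0.20 with normexp, 0.13 when dim named probes were allowed, 0.24 within 10 kb, 0.16 without the regions whose named probe shares bases with a lincRNA probe and 0.14 to 0.19 without 1 mouse. Pairs of probes of the same sign (67.5%) were 69.2% with normexp and 65.7% to 68.9% without 1 mouse. No paired analysis was possible because the labels give the groups no shared replicate numbers. The median SE of a difference was 0.237 log2 units in members at -4 or below and 0.0941 in members above 0.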

Other observations

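Further regions had every one of 3 or more tested probes at an unadjusted limma p under 0.05, and their values are given here as a description. On the reverse strand of chr6:83367433-83370986, 14631 bases from the probe of Tet3, which encodes a dioxygenase of methylated cytosine, 3 probes differed by 0.28 to 0.46 and Tet3 by 0.34 with no overlap between groups. At chr13:108653722-108654406, reverse strand and within the long region nearest Zswim6, 3 probes lay between 0.45 and 0.50, none with overlapping groups. At chr8:48480224-48480698, reverse strand and within the region nearest Trappc11, 3 probes differed by 0.40 to 0.47, again without overlap. In chr15:8463685-8494960, reverse strand, 89276 bases from the probe of the astrocyte glutamate transporter gene Slc1a3, 3 probes differed by 0.25 to 0.35, and Slc1a3 by -0.12. Lower were 4 of 4 probes on the reverse strand of chr13:58474388-58487288, by -0.30 to -0.22, none with overlapping groups, and 3 of 3 on the forward strand of chr10:8606683-8665783, by -1.07 to -0.53, where the nearest named probe, Sash1 at 164434 bases on the opposite strand, differed by -0.26.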
